A study of Homo sapiens with 6 samples.

Results

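A set of 10 genes of the endoplasmic reticulum (ER) was followed in U2OS cells, a human osteosarcoma line, after depletion of the zinc finger transcription factor E4F1. They are 6 chaperones and foldases (HSPA5, HSP90B1, CALR, PDIA4, DNAJB9 and SDF2L1), 2 sensors of unfolded protein (ERN1, which encodes IRE1, and ATF6), the transcription factor gene XBP1 and the degradation factor gene HERPUD1. The genes were taken from a list of names by their role, and no threshold on their values was applied, although earlier results of these data were known when the list was made. All 10 of the 58219 genes in the tables passed the filter on low counts, which left 15765 genes for testing. Cells that received a short hairpin RNA (shRNA) with a scrambled sequence gave 3 control libraries, and cells that received an shRNA against E4F1 gave 3 more. Both groups were grown in DMEM with 10% serum, infected for 24 h, selected in puromycin for 48 h and harvested at 72 h, so vector infection and selection are shared by the controls. The labels describe independent pools of cells and give 1 shRNA label per group, and poly(A) RNA was sequenced.

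Proteins that enter the ER are folded by chaperones, with BiP, the product of HSPA5, as the main one. When unfolded protein builds up, 3 membrane sensors respond. IRE1 cuts a short intron out of XBP1 mRNA outside the nucleus, which switches the reading frame so that the XBP1s activator is made. ATF6 moves to the Golgi, where the site proteases MBTPS1 and MBTPS2 release its transcription factor domain, and PERK, encoded by EIF2AK3, phosphorylates eIF2 alpha and so favours ATF4. XBP1s and ATF6 then raise the transcription of chaperone and degradation genes, many of them through a promoter element called the ER stress response element (ERSE), and HSPA5 mRNA is widely read as a gauge of the response.

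The intron that IRE1 removes is shown because gene counts do not see it. It lies in a coding exon of XBP1 on the minus strand of chromosome 22, and the stretch printed is chr22:28796104-28796169 (GRCh38, GENCODE release 29, read from transcript XBP1-201 on the minus strand). The capitals mark the 26 bases that are missing from the annotated spliced form XBP1-207.
XBP1 intron: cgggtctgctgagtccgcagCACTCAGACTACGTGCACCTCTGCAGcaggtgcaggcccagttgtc
A second annotated spliced form, XBP1-202, places the gap 2 bases further along the transcript and gives the same spliced product. Reads from both forms fall in the same gene, so the XBP1 counts below are the sum of spliced and unspliced mRNA.

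The ERSE sites are shown to give their letters in these promoters. The genes were chosen by role, and that role is itself tied to the ERSE, so finding the motif among them is not independent of the choice. RefSeq promoter windows (GRCh38.p14, 250 bases before to 50 after each annotated start) were found for all 10 genes, 12 windows in all, and searched on both strands. The ERSE, which is CCAAT, 9 bases of any kind and CCACG, was in 27 of 35116 windows of the same length (0.0769%) and in windows of 4 of the 10 genes. The shorter ERSE-II, which is ATTGG, any 1 base and CCACG, was in 19 windows (0.0541%) and in those of 2 further genes, and no gene had both. The element known as the UPRE, TGACG followed by TGG, was in 0.729% of windows and in none of these 10 genes. In the lines that follow, capitals mark the fixed letters of each motif, each site is printed in the direction of the motif, and the other bases are its surroundings.
HSPA5 ERSE: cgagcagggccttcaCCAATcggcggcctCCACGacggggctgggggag
HSP90B1 ERSE, distal: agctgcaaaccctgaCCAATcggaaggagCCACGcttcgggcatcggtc
HSP90B1 ERSE, proximal: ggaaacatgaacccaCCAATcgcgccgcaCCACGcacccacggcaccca
CALR ERSE: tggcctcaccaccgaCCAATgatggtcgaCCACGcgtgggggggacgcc
XBP1 ERSE: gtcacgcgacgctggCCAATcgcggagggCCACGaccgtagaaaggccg
HERPUD1 ERSE-II: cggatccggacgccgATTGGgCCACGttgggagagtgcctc
SDF2L1 ERSE-II: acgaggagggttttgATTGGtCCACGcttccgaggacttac
The stretches are chr9:125241376-125241424 (minus strand) for HSPA5, chr12:103930201-103930249 (plus) and chr12:103930306-103930354 (minus) for HSP90B1, chr19:12938369-12938417 (minus) for CALR, chr22:28800588-28800636 (minus) for XBP1, chr16:56932010-56932050 (plus) for HERPUD1 and chr22:21642099-21642139 (minus) for SDF2L1. The sites of HSPA5, XBP1 and HERPUD1 and the distal one of HSP90B1 read along the gene. The site of XBP1 begins 52 bases before the RefSeq start of its window and that of HSPA5 66 bases before. The gene spans given below are from GENCODE, and their starts can differ from those of RefSeq. The 2 sites of HSP90B1 lie inside its GENCODE span, which begins at 103930107. A match describes these letters in this window and does not show that a factor binds there.

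Depth was 14947085 to 16284450 reads in genes in the control libraries and 16159934 to 16892139 in the E4F1 shRNA libraries. Reads of E4F1 itself numbered 233, 286 and 297 in controls 1 to 3 against 51, 53 and 41 after its depletion (log2 fold change −2.57, SE 0.14, edgeR adjusted p = 7.66e-10), which is the direction its labels give. On the first principal component of all genes tested, control library 2 (−9.85) lay nearest to the E4F1 shRNA libraries (17.5 to 22.7), with the other controls at −20.9 and −31.1. On the second component control library 2 (−23.0) lay apart from all the rest (−1.04 to 9.29). Summed markers of the osteoblast and mesenchymal lineage were 4931 to 5155 CPM (reads of a gene per 1e+06 reads in genes) in control and 4412 to 4573 CPM in E4F1 shRNA libraries. All 10 of them passed the filter on low counts, but COL1A2 was near the floor (mean 0.771 CPM in control, 0.677 CPM in E4F1 shRNA libraries). Markers of epithelial (21.0 to 28.2 CPM), blood (2.26 to 4.63 CPM) and endothelial cells (3.60 to 4.22 CPM) were low, the ranges of these sums overlapped between groups, and the blood marker CD3E had 0 reads in every library. Single markers went different ways. In the osteoblast and mesenchymal list TNFRSF11B rose (log2 0.88) while COL1A1 (log2 −0.16) and VIM (log2 −0.25) fell. Of the epithelial markers, EPCAM rose (log2 0.43) while CDH1 (log2 −0.41) and CLDN4 (log2 −0.49) fell. The blood marker ITGAM fell as well (log2 −0.84), but it was near the floor (mean 1.71 CPM in control, 0.957 CPM in E4F1 shRNA libraries). In a bulk sample, fewer cells of a type and less RNA per cell cannot be told apart, and the part of these differences in the results was not tested.

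XBP1 was the only one of the 10 genes that passed the test. It rose 1.27-fold in E4F1 shRNA cells, and the other 9 genes did not pass in either direction. In the edgeR quasi-likelihood test, a gene is called at an adjusted p under 0.05 over all 15765 genes. Against this 1 gene up and 0 down of 10, 28.9% of all genes tested were called, 14.4% of them up and 14.4% down in shares of the same total. At an unadjusted p under 0.05 there were 3 of the 10, XBP1, DNAJB9 and SDF2L1. DESeq2 and limma-voom also called 1 gene up and 0 down. The median log2 fold change was 0.055 over the 10 genes and −0.0096 over all genes tested, so on this measure the genes sat close to the middle of the transcriptome.

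**Figure D1:**
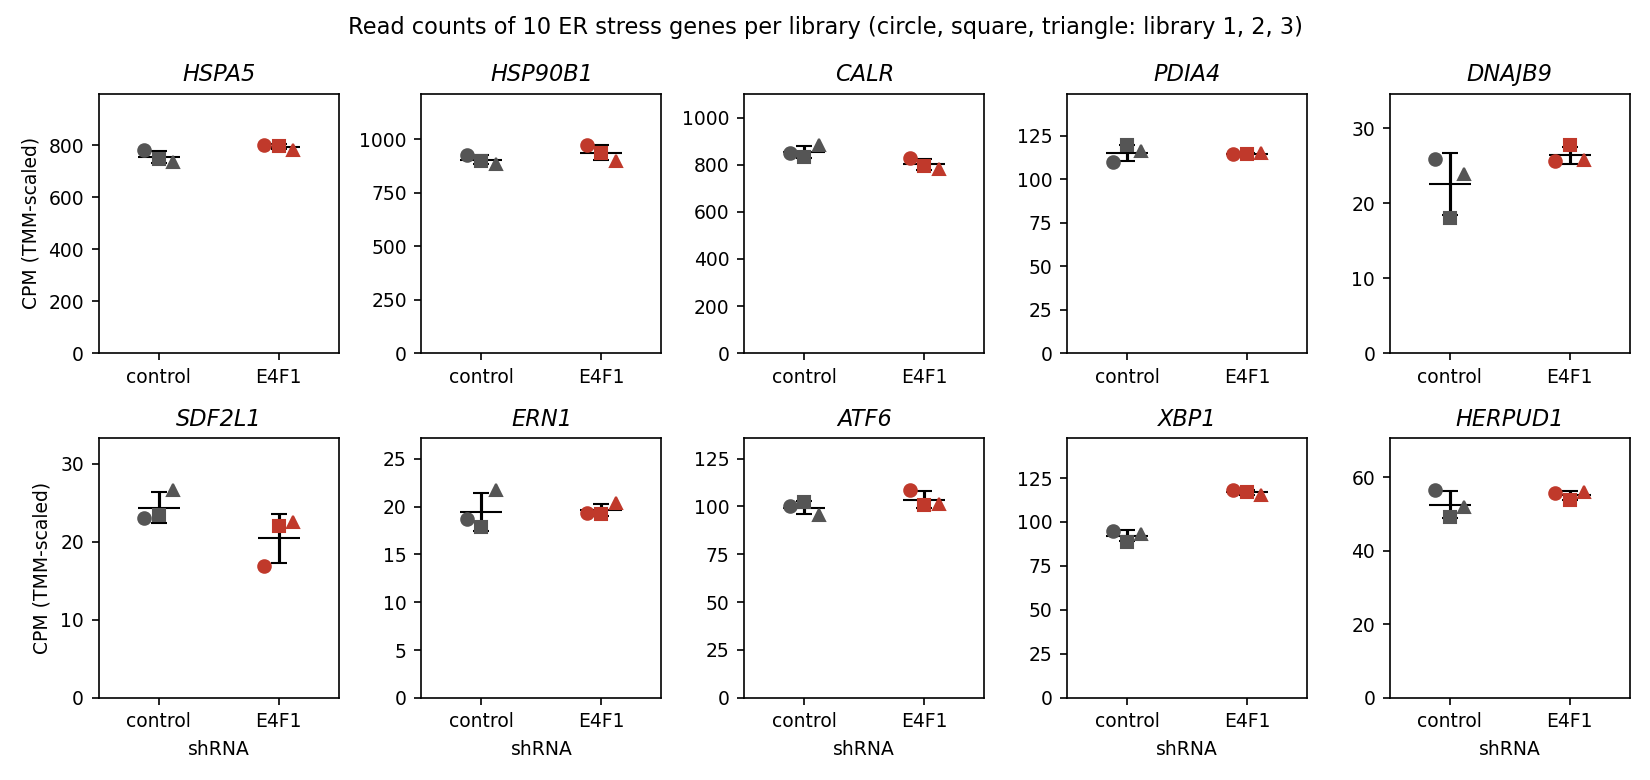
CPM of each of the 10 genes (y axis, TMM-scaled, from 0) in the 3 control shRNA libraries (grey) and the 3 E4F1 shRNA libraries (red). Circles, squares and triangles are libraries 1, 2 and 3 of a group, and bars are mean and SD. XBP1 lies at 88.7 to 94.9 CPM in control and 115 to 118 CPM in E4F1 shRNA libraries. SDF2L1 lies at 23.0 to 26.6 CPM in control and 16.8 to 22.5 CPM in E4F1 shRNA libraries. DNAJB9 has a low value in control library 2 (18.0 CPM). For the other chaperones and the sensors the groups lie close together.

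HSPA5, HSP90B1 and CALR were the most abundant of the set, and none of these 3 passed the test. HSPA5 encodes BiP, the Hsp70 of the ER that binds unfolded chains and holds the sensors inactive (chromosome 9, 125234853 to 125241330, minus strand). Controls 1 to 3 had 779, 748 and 735 CPM, and the E4F1 shRNA libraries 798, 798 and 781 CPM. Every E4F1 shRNA library was above every control, but by as little as 781 against 779 CPM. The difference was 1.05-fold with a 95% interval of 0.977 to 1.13 (log2 0.072, SE 0.050, edgeR adjusted p = 0.306), so a rise beyond 1.13-fold lay outside the interval.

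HSP90B1 encodes GRP94, the Hsp90 of the ER, which folds integrins and Toll-like receptors (chromosome 12, 103930107 to 103953645). It measured 926, 899 and 885 CPM in control and 971, 938 and 900.0 CPM in E4F1 shRNA libraries. The groups overlapped, and the fold of 1.04 had an interval of 0.961 to 1.12 (edgeR adjusted p = 0.492). CALR encodes calreticulin, a lectin that folds glycoproteins and stores calcium (chromosome 19, 12938578 to 12944489). It stood at 849, 833 and 882 CPM in control and 827, 793 and 783 CPM in E4F1 shRNA libraries. Here each E4F1 shRNA library was below each control, by a fold of 0.938 (interval 0.870 to 1.01, edgeR adjusted p = 0.188).

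PDIA4 encodes ERp72, a protein disulfide isomerase that forms and rearranges disulfide bonds (chromosome 7, 149003062 to 149028641). Its level of 110, 119 and 116 CPM in control and 115, 114 and 115 CPM in E4F1 shRNA libraries gave a fold of 0.995 (interval 0.921 to 1.08, edgeR adjusted p = 0.941). The E4F1 shRNA libraries lay inside the range of the controls. Its log2 value, −0.0066, was the smallest in size of the 10 and its sign was not stable under other settings.

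The remaining pair of chaperone genes were expressed less and varied more between libraries. DNAJB9 encodes ERdj4, a J-domain partner of BiP that represses IRE1 (chromosome 7, 108569568 to 108574850). It had 26.0, 18.0 and 23.8 CPM in control and 25.7, 27.7 and 25.8 CPM in E4F1 shRNA libraries. The groups overlapped, and the low value was that of control library 2. That control stood nearest to the E4F1 shRNA group on the first principal component and apart from all other libraries on the second. On the log2 scale the difference was 0.23 with an SE of 0.11, and its edgeR adjusted p was 0.117. Without control library 2 it was 0.095 (adjusted p = 0.423), and without control library 1 it was 0.35 and passed (edgeR adjusted p = 0.0400).

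SDF2L1 encodes a partner of ERdj3 that keeps misfolded protein soluble in the ER (chromosome 22, 21642261 to 21644298). Its level was 23.0, 23.4 and 26.6 CPM in control and 16.8, 22.0 and 22.5 CPM in E4F1 shRNA libraries. All E4F1 shRNA libraries were below all controls, 2 of them by little and E4F1 shRNA library 1 by more. The log2 fold change of −0.25 (SE 0.10) did not pass (edgeR adjusted p = 0.0795), and it was −0.12 (adjusted p = 0.416) without E4F1 shRNA library 1. Summed over the 6 chaperone genes, the level was 2640 to 2714 CPM in control and 2628 to 2754 CPM in E4F1 shRNA libraries, and those ranges overlapped.

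Neither sensor mRNA passed the test. ERN1, the gene of the IRE1 kinase and endoribonuclease (chromosome 17, 64039142 to 64130819), had 18.7, 17.9 and 21.7 CPM in control and 19.3, 19.2 and 20.4 CPM in E4F1 shRNA libraries. The E4F1 shRNA values lay within the spread of the controls, at 1.01-fold (interval 0.883 to 1.15, edgeR adjusted p = 0.930). ATF6 (chromosome 1, 161766294 to 161964070) had 100.1, 102 and 95.5 CPM in control and 109, 101 and 101 CPM in E4F1 shRNA libraries. The groups overlapped, at 1.04-fold (interval 0.960 to 1.13, edgeR adjusted p = 0.466). Both sensors are activated as proteins, which mRNA counts do not measure.

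XBP1 (chromosome 22, 28794555 to 28800597, minus strand) encodes the bZIP factor whose spliced form drives chaperone, secretion and degradation genes. Controls 1 to 3 had 94.9, 88.7 and 93.1 CPM, from 1418 to 1448 reads each, and the E4F1 shRNA libraries 118, 117 and 115 CPM, from 1887 to 1971 reads each. The lowest E4F1 shRNA library (115 CPM) lay well above the highest control (94.9 CPM), while the SD was 3.20 CPM in control and 1.55 CPM in E4F1 shRNA cells (n = 3 each). The rise was 1.27-fold with an interval of 1.17 to 1.37 (log2 0.34, SE 0.054, edgeR adjusted p = 0.000167). It passed in all 14 other settings, with log2 values from 0.32 to 0.38 and adjusted p from 8.44e-07 to 0.00264. Without control library 2 the log2 value was 0.32 (adjusted p = 7.75e-05).

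HERPUD1 encodes an ER membrane protein that organises the ubiquitin ligase complex of ER-associated degradation, the route by which misfolded proteins go to the proteasome (chromosome 16, 56932048 to 56944863). It had 56.5, 49.2 and 51.9 CPM in control and 55.8, 53.7 and 55.9 CPM in E4F1 shRNA libraries. The groups overlapped, at 1.05-fold (interval 0.954 to 1.16, edgeR adjusted p = 0.453). Over the whole set, the groups did not overlap for 4 of 10 genes, HSPA5 and XBP1 higher and CALR and SDF2L1 lower with E4F1 shRNA. Of all genes tested, 41.8% had groups that did not overlap, so the share among these genes was near the background.

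**Figure D2:**
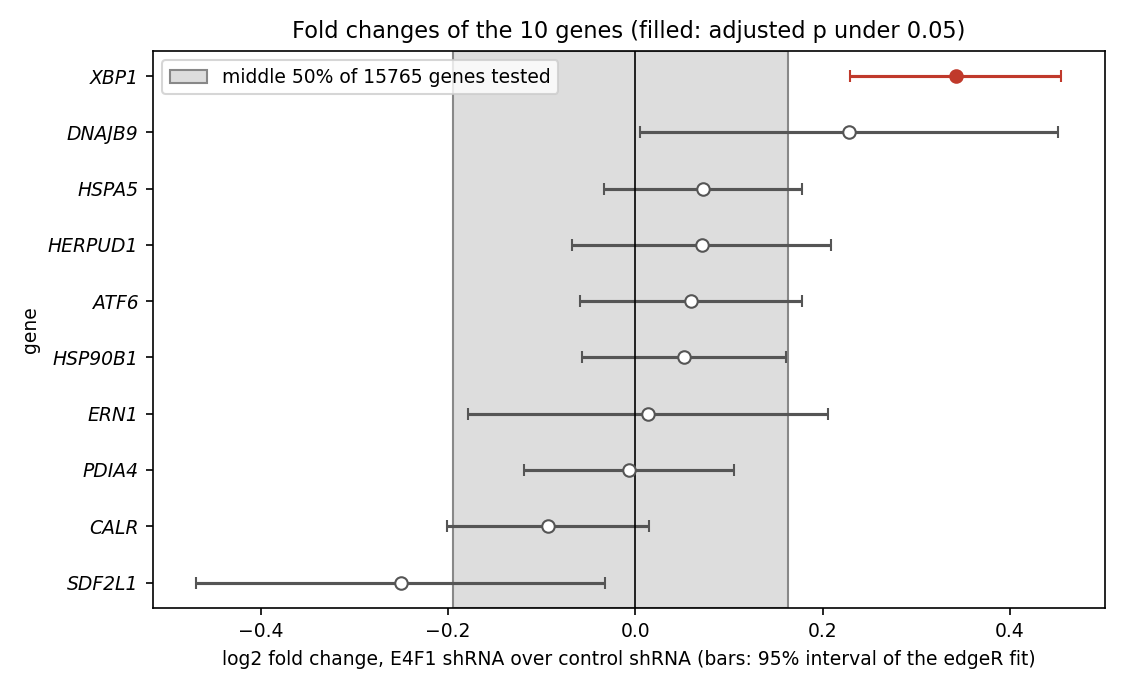
Log2 fold change of each of the 10 genes, E4F1 shRNA over control shRNA (x axis), with the 95% interval of the edgeR fit as bars. The grey band holds the middle 50% of the 15765 genes tested (−0.19 to 0.16), the filled point is the gene that passed, XBP1 at 0.34, and the open points are the 9 that did not, from SDF2L1 at −0.25 to DNAJB9 at 0.23.

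The width of the intervals differed among the 9 genes that did not pass. For the abundant genes HSPA5, HSP90B1, CALR and PDIA4 and for ATF6, the intervals of the fold stayed between 0.870 and 1.13. For all 9 they reached from 0.722 (SDF2L1) to 1.37 (DNAJB9), so for the 2 genes at the ends, changes of about the size seen in XBP1 were within the interval.

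Levels per kilobase of annotated exon allow the genes to be ordered. In control cells the order, in CPM per kb (mean ± SD, n = 3), ran from CALR (315 ± 9.19) over HSPA5 (193 ± 5.81) and HSP90B1 (192 ± 4.49) to PDIA4 (35.1 ± 1.43), XBP1 (30.4 ± 1.06), SDF2L1 (22.2 ± 1.79), ATF6 (12.6 ± 0.437), HERPUD1 (10.2 ± 0.722), DNAJB9 (7.97 ± 1.45) and ERN1 (1.79 ± 0.186). HSPA5 and HSP90B1 were the only neighbours whose control libraries overlapped. PDIA4 and XBP1 changed places on this scale: XBP1 was below PDIA4 in every control library (29.3 to 31.3 against 33.6 to 36.4 CPM per kb) and above it in every E4F1 shRNA library (38.0 to 39.0 against 34.9 to 35.1 CPM per kb). The exon length used is the union over annotated transcripts, which lowers the value of genes with long rare transcripts such as ERN1.

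**Figure D3:**
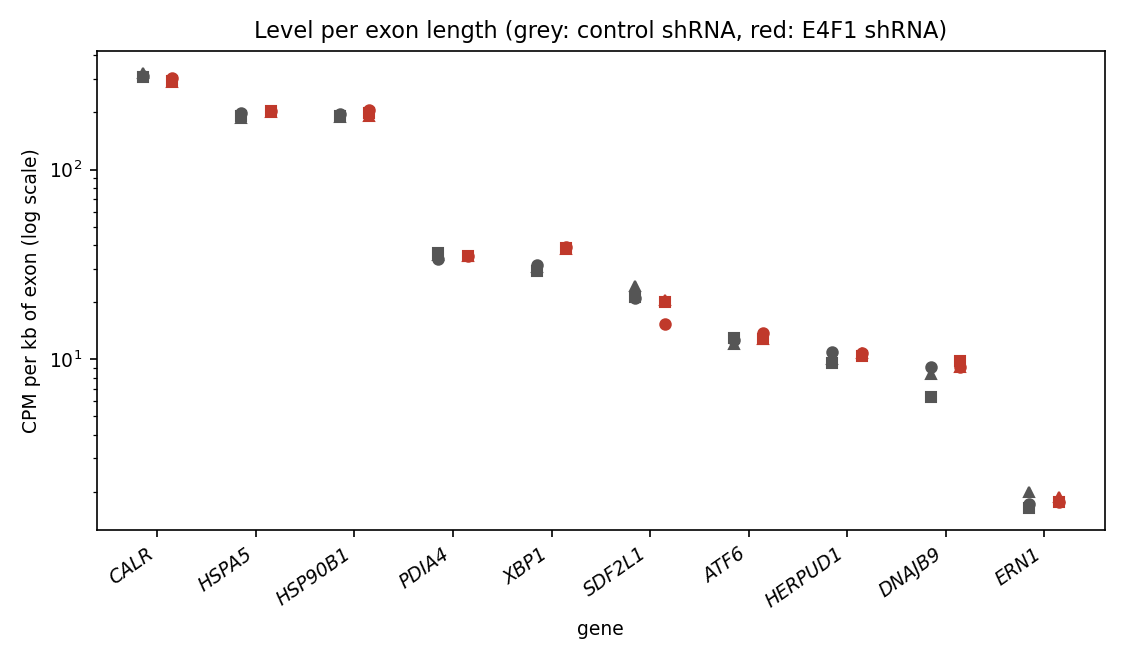
CPM per kb of exon on a log axis for the 10 genes, ordered by their control level, with grey for control and red for E4F1 shRNA libraries (circle, square and triangle are libraries 1, 2 and 3). Levels span from 1.79 (ERN1) to 315 (CALR) in control, and XBP1 is the gene whose red points sit clearly above its grey ones.

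Genes around this core went both ways. The 7 lists of other genes of the ER protein folding pathway held 164 genes, of which 161 were tested, 33 rose and 31 fell, with a median log2 fold change of 0.0026. Called genes were 39.8% of these 161, against 28.9% of all genes tested. All 7 lists were chosen with earlier results of these data known, so the shares called in them are not independent of that choice. Without E4F1 shRNA library 1 the genes that fell were 19 in place of 31, and without E4F1 shRNA library 2 those that rose were 22 in place of 33. Over all genes tested, the calls went from 4550 to 3160 and 3031 in these fits, so fewer calls were not particular to the lists. Among the other sensors and proteases, EIF2AK3 had log2 −0.040 (edgeR adjusted p = 0.787), ATF6B, the paralog of ATF6, −0.085 (0.373), MBTPS1 −0.047 (0.509) and MBTPS2 −0.052 (0.661), and none of these 4 passed.

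Of 27 tested ER lumen chaperones and cofactors, 9 rose and 5 fell, with a median of 0.041, so that 51.9% were called against 28.9% of all genes tested. CANX, the membrane-bound partner of calreticulin, rose: its mean was 1089 ± 28.5 CPM in control and 1242 ± 67.8 CPM in E4F1 shRNA cells (SD, n = 3 each), a log2 difference of 0.19 with an edgeR adjusted p of 0.0149. SEC63, a J-domain protein of the translocon (log2 0.33), and the lectin gene MLEC (log2 0.30) also rose. The cyclophilin gene PPIC (log2 −0.45) and FKBP10, a prolyl isomerase that helps fold collagen (log2 −0.24), fell. Of 22 disulfide isomerases and oxidases, 2 rose and 5 fell (median −0.037), and the share called, 31.8%, was near that of all genes tested. SUMF1, the enzyme that activates sulfatases in the ER, fell: its mean was 11.7 ± 0.211 CPM in control and 5.84 ± 0.353 CPM in E4F1 shRNA cells (SD, n = 3 each), with an edgeR adjusted p of 7.22e-06. The sulfhydryl oxidase gene QSOX1 fell by 0.37 on the log2 scale, and TXNDC12, a thioredoxin-like protein gene, rose (log2 0.43).

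Of 32 genes of ER-associated degradation, 5 rose and 5 fell (median −0.024), and the share called, 31.2%, was near the 28.9% of all genes tested. ERLIN1 and ERLIN2, which form the membrane complex that marks activated inositol trisphosphate receptors for degradation, both rose (log2 0.55 and 0.45). The mannosidase gene MAN1B1 (log2 −0.41) and EDEM2, which trims mannose to mark glycoproteins for disposal (log2 −0.38), fell. Of 26 regulators of the sensors and branches, 4 rose and 5 fell (median −0.043, 34.6% called), with the ER-bound bZIP factor gene CREB3L2 up (log2 0.43), its paralog CREB3L1 down (log2 −0.54), NFYB, a subunit of the CCAAT-binding factor NF-Y, up (log2 0.49) and the phosphatase gene PTPN1 down (log2 −0.29). Of 38 genes of translocation and ER exit, 6 rose and 8 fell (median 0.0064, 36.8% called). The signal recognition particle gene SRP72 rose (log2 0.35) while SRPRA, the receptor subunit that docks the particle, fell (log2 −0.46), and the other receptor subunit SRPRB rose (log2 0.28).

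The list of ATF4 and other genes linked to its branch, named here for PERK, had the highest median of the 7 lists, 0.24. Of its 11 genes 6 rose, ATF4 among them, and 1 fell (63.6% called, against 28.9% of all genes tested). As for the other lists, its choice was made with earlier results of these data known. Gene counts do not show which kinase acts upstream of ATF4, and that was not tested. CHAC1 (log2 0.92), TRIB3 (log2 0.68) and ASNS (log2 0.67) rose, and so did ATF4 (log2 0.32), while PPP1R15A, the phosphatase subunit that reverses eIF2 alpha phosphorylation, fell (log2 −0.35). DDIT3, which encodes CHOP, had log2 0.24 and did not pass (edgeR adjusted p = 0.185). The 5 substrates of decay by IRE1 had a median of −0.22, and 60% were called, against 28.9% of all genes tested. PDGFRB (log2 −0.41) and COL6A1 (log2 −0.26) fell, and SCARA3 rose (log2 0.24). HGSNAT had log2 −0.22 and did not pass (edgeR adjusted p = 0.0883). BLOC1S1, the best known of them, had log2 −0.050 (edgeR adjusted p = 0.791).

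**Figure D4:**
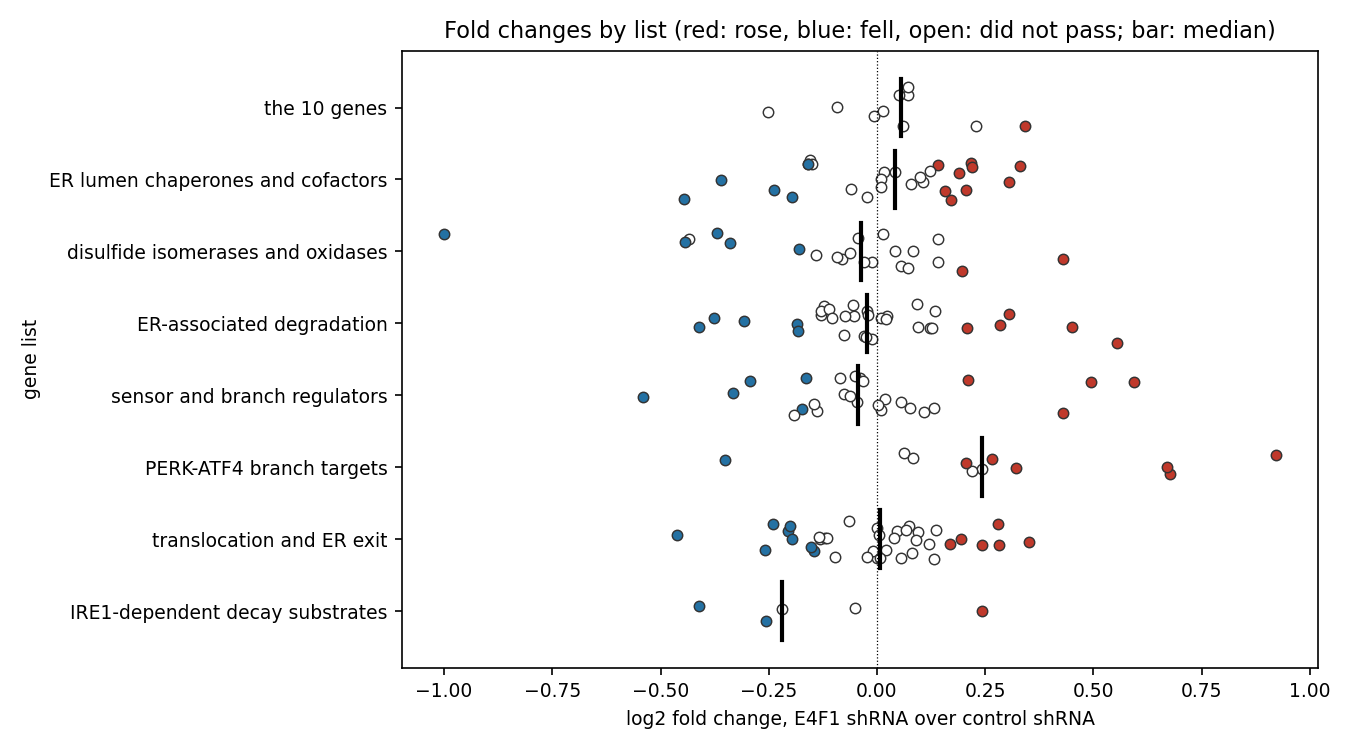
Log2 fold change, E4F1 shRNA over control shRNA (x axis), of every tested gene of the 7 lists and of the 10 genes, 1 point per gene. Red points rose, blue points fell, open points did not pass, and vertical bars are medians. All 7 lists hold both genes that rose and genes that fell, and the median of the PERK-ATF4 list is 0.24.

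The 2 motifs were in promoter windows of 44 genes, 6 of them among the 10 followed here and 5 in the other lists (CANX, CRELD2, ERO1B, HYOU1 and PDIA6). Of these 44, 31 were tested, 4 rose and 6 fell, and the median log2 fold change was −0.043. Called genes were 32.3% of these 31, near the 28.9% of all genes tested. Among the 25 that are not of the 10, 6 fell and 3 rose, namely CANX (log2 0.19), PLS3 (log2 0.30) and SHCBP1 (log2 0.72). CRELD2, an ER chaperone-like gene, fell by 0.20 on the log2 scale and SERP1, which stabilises membrane proteins at the translocon, by 0.28 (edgeR adjusted p = 0.0410 and 0.00132). HYOU1, the large Hsp70-like exchange factor of BiP, had log2 0.079 (0.267), and PDIA6 −0.062 (0.367).

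Likeness of pattern was measured as the root mean square difference of log2 CPM over the 6 libraries after centring each gene, among 10082 protein-coding genes. The genes nearest to HSPA5 were ITCH (0.0056), MSI2 (0.011), ZNF24 (0.012), FYN (0.013) and PDIA3 (0.014), a disulfide isomerase that works with calreticulin. Those nearest to XBP1 were POLR3F (0.020), AMMECR1 (0.021), G2E3 (0.023), TEX2 (0.023) and RASSF3 (0.025). None of these 10 nearest genes is one of the genes followed here. Nearness over 6 libraries describes the shape of the values in this experiment only.

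Copies of these genes elsewhere in the genome took few reads. The pseudogenes HSPA5P1, HSP90B3P and XBP1P1 had 1 to 7 reads per library and HSP90B2P 12 to 20, while XBP1 had 1418 to 1971 reads and HSPA5 11434 to 13416. Reads that map to several places were counted in no gene, so the levels of HSPA5, HSP90B1 and XBP1 are uncertain by what was lost there.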

How the data were processed

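Poly(A) RNA of 3 control shRNA and 3 E4F1 shRNA libraries was sequenced. For each library the authors deposited a table of unnormalised counts per gene, made with bcl2fastq 2.20 and STAR 2.5.1b on GRCh38, per the submitters' processing notes. The annotation release and the test the authors used are not given in the sources used here. The reverse-strand count column was used, since the opposite strand gave genes only 885046 to 977742 reads. Lines that name no gene, 27.1% to 31.7% of the reads, were left out of the library totals. Symbols and coordinates came from GENCODE release 29 (57881 of 58219 identifiers matched without version).

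The test was edgeR 4.0.16 under R 4.3.3 on all 6 libraries: filterByExpr, TMM scaling, a two-sided quasi-likelihood F-test of group with no other term, and Benjamini-Hochberg adjustment over 15765 genes, threshold 0.05. CPM are TMM-scaled, and log2 values for likeness used a prior count of 2. The SE was derived from the F statistic and the 95% interval from the SE and the fit's degrees of freedom. The p-values measure the spread between pools. An exact permutation test of 3 against 3 libraries cannot give a p below 0.1. The fit was also run on counts simulated from its own estimates of spread. That run had fewer changed genes than were called here, so it does not show how the fit performs on these data. The 10 genes and all lists were chosen with earlier results of these data known. Named genes were E4F1, the 10 genes, the other sensors and site proteases, up to 4 called genes per list with the smallest adjusted p (a selection of these is printed) and the 5 nearest patterns to HSPA5 and XBP1. CANX, CRELD2, SERP1, HYOU1, PDIA6, PLS3, SHCBP1, PPP1R15A, DDIT3, BLOC1S1, HGSNAT and the single markers were named after their values were seen. Alternatives were DESeq2 1.42.0, its size factors in edgeR, library totals, limma-voom 3.58.1, counts without regard to strand, a filter of 1 CPM in 3 libraries or none, a replicate block and leaving out each library.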

Additional observations from a re-analysis of the deposited data

How the results depend on the processing

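XBP1 passed under all 14 alternatives, and 2 of the other 9 genes passed in 1 alternative each: DNAJB9 without control library 1 and SDF2L1 with the replicate number as a block (log2 −0.25, edgeR adjusted p = 0.0283). Same-numbered libraries had correlations of 0.0070, 0.047 and 0.048 over genes, within the −0.11 to 0.077 of libraries with different numbers. The labels state no pairing, so the numbers were not taken as pairs. With 3 libraries per group this check is weak and cannot exclude pairing. With the replicate block the genes called down were 1 of 10, and all genes called were 4865, against 4550 in the main fit.

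Leaving out 1 library at a time gave 1 to 2 of the 10 genes up and 0 to 0 down, 19 to 36 genes of the other lists down and 22 to 33 up, and 3031 (without E4F1 shRNA library 2) to 5370 (without control library 2) genes called in all. DESeq2 called 3577 genes. Signs turned for 2 genes near 0. PDIA4 had log2 0.0047 with DESeq2, 0.0057 without a low-count filter, 0.029 without control library 2 and 0.0023 without E4F1 shRNA library 1. ERN1 had −0.036 without control library 2 and −0.0084 without E4F1 shRNA library 3. Over the fits that leave out a library, PDIA4 ran from −0.025 to 0.029 and ERN1 from −0.036 to 0.10. The cause was not tested. DNAJB9, SDF2L1 and ERN1 had the fewest reads of the 10 genes, 270 to 466 per library.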

Other observations

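The heptamer CTTATCT in the longest annotated 3' UTR was looked up after the data and earlier results on it had been seen. Of the 161 other genes of the folding pathway that were tested, 15 held it, and 10 of these rose and 0 fell: DNAJC10, ERLIN2, MLEC, SAR1B, SEC11C, SEC63, SRP72, SRPRB, UBE2J2 and UGGT1. Of the 146 without it, 23 rose and 31 fell. Over all 13090 tested genes with an annotated 3' UTR, 589 of 1539 with the heptamer rose and 127 fell, against 1590 and 1902 of 11551 without it. The 161 pathway genes are part of these 13090, so their split is not independent of the pattern over all genes. The median 3' UTR length was 3948 bases in the 15 pathway genes with the heptamer and 1030 in those without, and the part of that length difference was not tested. Among the 10 genes followed in the report, HSPA5 and ATF6 held the heptamer and did not pass the test, while XBP1, which rose, did not hold it.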
